A study of Mus musculus with 42 samples.

Results

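Expression was compared between 5 mouse libraries labelled hippocampus and 5 labelled cerebellum, all from mice on the control diet with NaKtide. They were chosen by these labels, and they are 10 of the 42 libraries of the series, of which 22 are labelled hippocampus and 20 cerebellum. Both groups were fed normal chow with 11% fat for 12 weeks, and the chow carried doxycycline at 300 mg/kg to switch on a NaKtide transgene in transgenic mice. NaKtide is a peptide derived from the sodium pump Na,K-ATPase that interferes with the coupling of the pump to the Src kinase. The title of the series names the adipocyte pump, but the promoter that drives the transgene, the strain and the age are left unstated in the labels. In the NaKtide groups transgene and doxycycline went together, so their parts cannot be told apart there. Reference values came from 6 hippocampus and 5 cerebellum libraries of control diet mice without NaKtide, for which the labels do not say whether doxycycline was given, and from the western diet groups (42% fat). The labels do not tie each library to its own animal, so the tests below rest on the spread between libraries, and that spread may be technical.

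The hippocampus is built around granule cells of the dentate gyrus and pyramidal cells of the CA fields. The cerebellum is built around its own, very numerous granule cells and the Purkinje cells. Gabra6, a subunit of the GABA-A receptor, is used as a marker of cerebellar granule cells, and C1ql2, a synaptic protein, as a marker of dentate granule cells. The choroid plexus, which makes cerebrospinal fluid, and the ependyma, the ciliated lining of the ventricles, lie against both regions. In bulk tissue, fewer cells of a type and less RNA per cell cannot be told apart.

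The region markers did not separate the labels. Levels are given as CPM, gene counts scaled to the normalized size of each library. Gabra6 was at 0, 0.165, 0, 0.502 and 0.161 CPM in hippocampus 1 to 5, against 0, 0, 0, 0 and 121 CPM in cerebellum 1 to 5. Cerebellum 5 was therefore the only 1 of the 5 cerebellum libraries with a clear level of this gene. The same library stood alone for Cbln3, a synaptic organizer of granule cells, at 442 CPM, against at most 0.959 CPM in cerebellum 1 to 4 and at most 1.06 CPM in the hippocampus libraries. Pcp2, a Purkinje cell gene, reached 129 CPM there, against at most 0.934 CPM in cerebellum 1 to 4 and at most 6.78 CPM in hippocampus. Car8, another Purkinje cell gene, reached 347 CPM, against 3.76 to 10.6 CPM in cerebellum 1 to 4 and 1.98 to 16.6 CPM in hippocampus. Gabra6, Cbln3 and Pcp2 were thus at or near 0 in cerebellum 1 to 4, and the names of the groups below are those of the labels.

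Markers of the hippocampus were spread over both labels. C1ql2 was at 141, 61.7, 43.1, 13.1 and 0.803 CPM in hippocampus 1 to 5, against 111, 2.86, 1.09, 7.51 and 20.1 CPM in cerebellum 1 to 5. Cerebellum 1 stood above 4 of the 5 hippocampus libraries, and hippocampus 5 stood below every cerebellum library. The log2 fold change of hippocampus over cerebellum was 0.88 (SE 1.22, edgeR adjusted p = 0.696). Spink8, a CA1 pyramidal cell gene, was at 36.4, 33.4, 2.96, 1.00 and 0.642 CPM in hippocampus 1 to 5, against 5.29, 1.35, 0.272, 3.36 and 4.77 CPM in cerebellum. Only hippocampus 1 and 2 exceeded all cerebellum libraries for this gene. Fibcd1, also a CA1 gene, was highest in hippocampus 2 and 1 at 145 and 105 CPM, but reached 77.7 and 74.2 CPM in cerebellum 1 and 5. Over the list of 10 dentate granule cell genes the median log2 fold change was 0.37, and over the 12 pyramidal cell genes 0.60, beside -0.00 over all 17088 genes tested. Of the pyramidal cell genes, 4 had an unadjusted p under 0.05 and a higher level in hippocampus, beside 12.1% of all genes. Without hippocampus 3 and 4 there were 3 such genes, beside 549 of all 17088 genes.

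**Figure D1:**
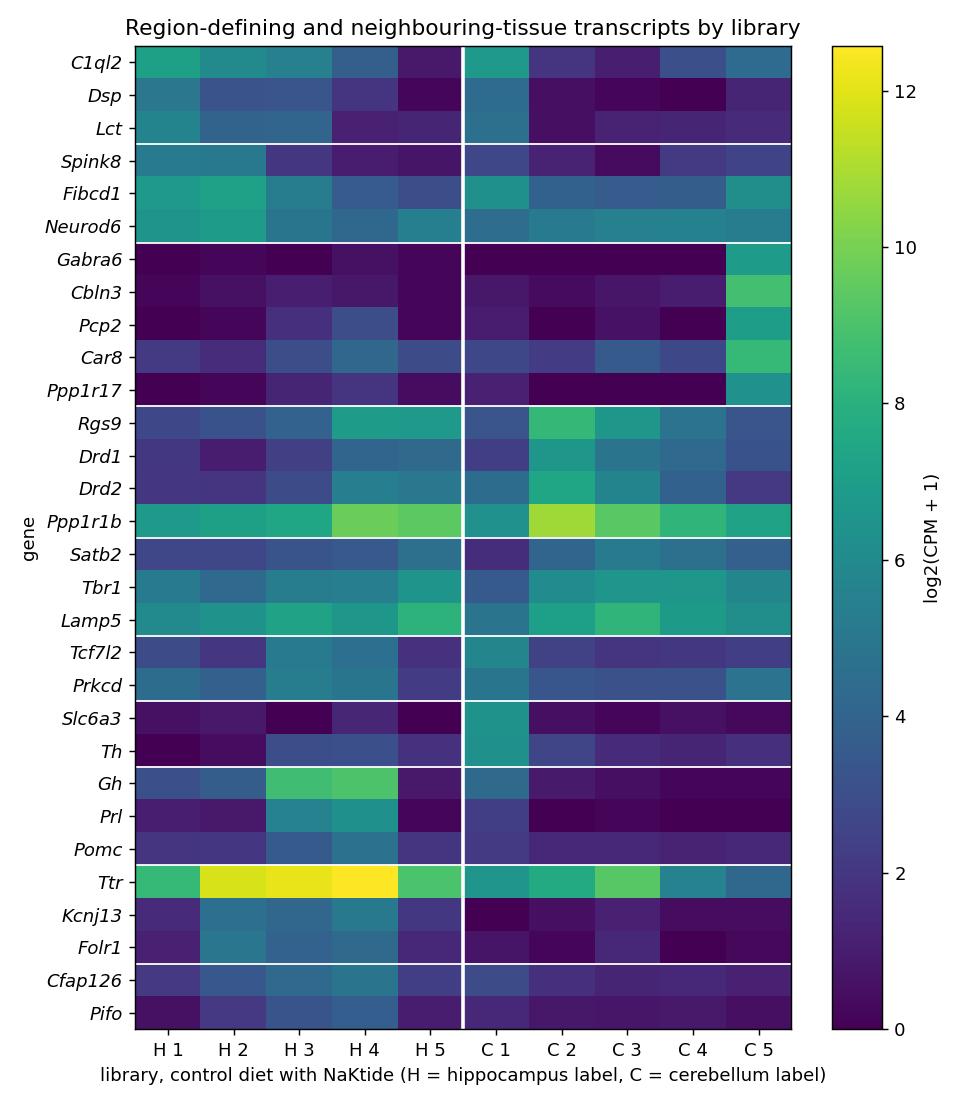
Levels of 30 transcripts (rows, log2(CPM + 1)) in the 5 hippocampus (left) and 5 cerebellum libraries (right) on control diet with NaKtide, in blocks from dentate and pyramidal cells at the top to choroid plexus and ependyma at the bottom. Cerebellum 5 is the only library with high Gabra6 and Cbln3, hippocampus 3 and 4 hold Gh and Prl, and striatal genes such as Rgs9 are high in libraries of both labels.

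Several libraries carried transcripts of other brain regions. Rgs9, a signalling regulator of striatal medium spiny neurons, was at 5.63, 7.94, 14.6, 118 and 111 CPM in hippocampus 1 to 5, against 9.03, 331, 98.3, 26.7 and 8.87 CPM in cerebellum 1 to 5. Drd2, the dopamine receptor D2 gene of the same neurons, reached 40.9 and 32.3 CPM in hippocampus 4 and 5, against 173 and 50.1 CPM in cerebellum 2 and 3. The 14 striatal genes summed to 333 to 2180 CPM in hippocampus and to 410 to 6380 CPM in cerebellum. Cerebellum 1 was alone in holding Slc6a3, the dopamine transporter of midbrain neurons, at 84.2 CPM, against at most 1.51 CPM in hippocampus and at most 0.479 CPM in the other cerebellum libraries. Th, the enzyme that starts dopamine synthesis, reached 79.2 CPM in the same library and at most 7.28 CPM in the other 9. Thalamic Tcf7l2 was likewise highest there, at 54.2 CPM, followed by hippocampus 3 and 4 at 36.4 and 22.8 CPM.

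Hippocampus 3 and 4 shared a further set of transcripts. Gh, the growth hormone gene of the anterior pituitary, was at 7.5, 11.9, 414, 524 and 0.803 CPM in hippocampus 1 to 5, against 19.5, 0.902, 0.408, 0.160 and 0.111 CPM in cerebellum 1 to 5. Prl, which encodes prolactin, was at 1.09, 0.827, 46.5, 77.8 and 0.161 CPM in hippocampus, against 4.05, 0, 0.136, 0 and 0 CPM in cerebellum. Both hormones stood out in the same 2 hippocampus libraries, and cerebellum 1 held the highest level of its group. The 10 genes of the pituitary list summed to 479 and 651 CPM in hippocampus 3 and 4, against 4.49 to 17.7 CPM in the other 3 hippocampus libraries and 2.08 to 28.2 CPM in cerebellum. Their part in the other differences reported here was not tested, and the counts of called genes and the main lists are also given without these 2 libraries.

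The Prl promoter is shown because the 2 libraries are marked by this hormone gene, and it carries the letters read by POU1F1, the pituitary factor that switches on Gh and Prl. The sequence is the 150 bases before the RefSeq start of Prl (GRCm38.p6, plus strand, chr13:27057420-27057569), and capitals mark each match to TATNCAT or, on the other strand, ATGNATA.
Prl promoter: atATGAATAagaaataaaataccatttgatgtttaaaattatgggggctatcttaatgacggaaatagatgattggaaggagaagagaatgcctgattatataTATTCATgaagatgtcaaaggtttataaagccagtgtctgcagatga
It holds 2 matches, 1 on each strand, whereas 4.27% of 27025 RefSeq promoters hold at least 1 match in the same window. A match is a description of these letters and does not show binding.

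The overall distances between libraries followed the labels only in part. The first principal component held 37.0% of the variance and set hippocampus 3 and 4, at 61.1 and 72.0, against cerebellum 4 and 5, at -58.4 and -53.6, with the other 6 libraries between -24.9 and 15.6. For 3 of the 10 libraries the nearest neighbour carried the other label. Hippocampus 5 and cerebellum 3 were the closest of all pairs (mean chi-square between their counts 7.54 per gene), followed by hippocampus 3 and 4 (11.8). Hippocampus 1, hippocampus 5 and cerebellum 1 were on average closer to the other label than to their own. Totals were 4669374 to 6705435 counts in hippocampus and 5832016 to 8220112 counts in cerebellum, a mean difference of -1150264 (exact permutation test, two-sided, p = 0.0952, n = 5 each).

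**Figure D2:**
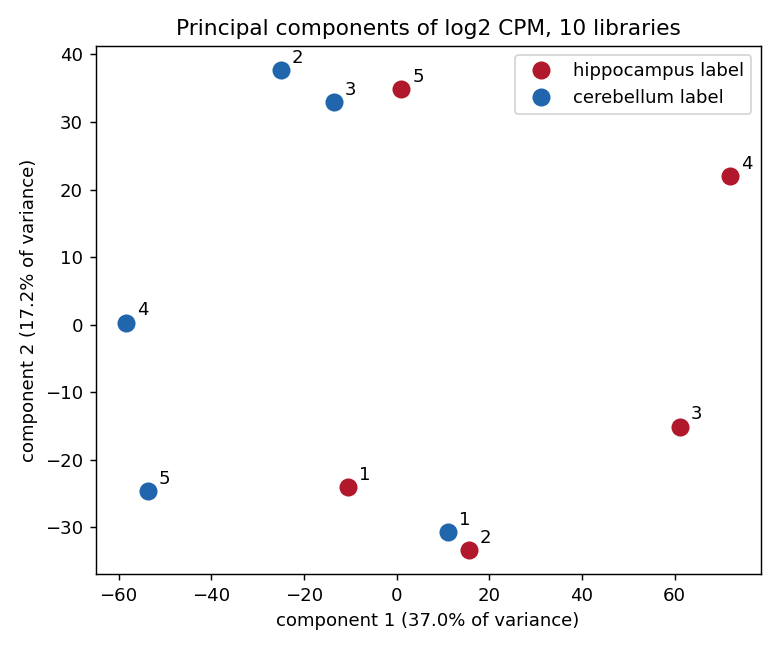
Principal components of log2 CPM over the genes tested, with component 1 (37.0% of variance) across and component 2 (17.2%) up, and 1 point per library with its replicate number. Hippocampus 3 and 4 lie at the right end and cerebellum 4 and 5 at the left end, while hippocampus 5 lies beside cerebellum 3.

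No gene was called between the region labels. The edgeR quasi-likelihood test, fitted on all 42 libraries in 8 groups, called 0 of 17088 genes (0.0%) at a Benjamini-Hochberg adjusted p under 0.05. At an unadjusted p under 0.05 there were 3617 genes, of which 2061 (12.1%) were higher and 1556 (9.11%) lower in hippocampus. DESeq2 called 19 genes (0.11% of the 17271 it adjusted), 9 higher and 10 lower. Its adjusted p was 2.4e-05 to 4.11e-05 for Mid1, Mid1-ps1 and Gm21742. For all the others it was 0.0493 to 0.0494, just under the threshold. One of those, Hoxb5, averaged only 0.0502 CPM in hippocampus and 0 CPM in cerebellum. The 2 groups did not overlap for 463 genes higher in hippocampus (2.71%) and 350 lower (2.05%). Without hippocampus 3 and 4 the count of called genes was again 0 and that at an unadjusted p under 0.05 was 1203. In the other conditions the same contrast of labels called 376 genes without NaKtide on control diet (2.20%), 299 with NaKtide on western diet (1.75%) and 0 on western diet alone (0.0%).

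Mid1 had the smallest p. It encodes a ubiquitin ligase of microtubules (ENSMUSG00000035299, GRCm38 chromosome X, 169685199 to 170005736) and was at 8.13, 7.61, 6.77, 5.52 and 6.26 CPM in hippocampus 1 to 5, against 74.4, 74.2, 129, 127 and 23.8 CPM in cerebellum 1 to 5. The groups did not overlap, and the hippocampus libraries lay within a narrow range. The log2 fold change was -3.63 (SE 0.70, edgeR adjusted p = 0.113), and -3.55 without hippocampus 3 and 4 (edgeR adjusted p = 0.678). DESeq2 gave -3.64 with an adjusted p of 2.4e-05. Fitted on these 10 libraries alone, edgeR called Mid1 at an adjusted p of 0.00889. The 5 hippocampus libraries with markers as different as C1ql2, Gh and Rgs9 thus shared a low level of this gene.

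The same pattern was seen in 2 transcripts annotated on the Y chromosome. Mid1-ps1, by its symbol a pseudogene of Mid1, averaged 1.23 ± 0.103 CPM in hippocampus and 17.1 ± 9.01 CPM in cerebellum (SD, n = 5 each), a log2 fold change of -3.77 (SE 0.75, edgeR adjusted p = 0.113). Reads of Mid1 and its copy can be split between them in counting, so the level of each is uncertain. The predicted gene Gm21742 had 0 counts in all 5 hippocampus libraries, which allows up to 0.11 CPM over the group (3 counts), against 112 counts or 3.14 CPM over the 5 cerebellum libraries. In these 10 libraries it was therefore at least 28.6-fold higher in cerebellum, for counting error only. Without NaKtide on control diet, Gm21742 ranged from 0.478 to 8.08 CPM in hippocampus and from 1.42 to 4.33 CPM in cerebellum. Its highest level in the series, 14.9 CPM, was in hippocampus western NaKtide 4. Whether Gm21742 shares reads with Mid1 was not tested.

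Mid1 was not low in every library labelled hippocampus. Across the other 32 libraries Mid1 was under 10 CPM in 3, all labelled hippocampus. These were control 1 without NaKtide at 9.25 CPM and western 2 and 4 at 5.71 and 6.97 CPM. The 6 hippocampus libraries on control diet without NaKtide had a lowest, median and highest level of 9.25, 34.9 and 108 CPM, against 59.7, 86.2 and 102 CPM in the 5 cerebellum libraries. Their log2 fold change was -0.63 (edgeR adjusted p = 0.473), and the difference between the contrasts with and without NaKtide was -3.01 (SE 0.90, edgeR adjusted p = 0.0186). The call of this difference was lost in 3 of 29 alternatives, over which the edgeR or DESeq2 adjusted p ranged from 0.00534 to 0.209. On western diet the contrast of labels was 0.44 with NaKtide and -0.22 without.

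**Figure D3:**
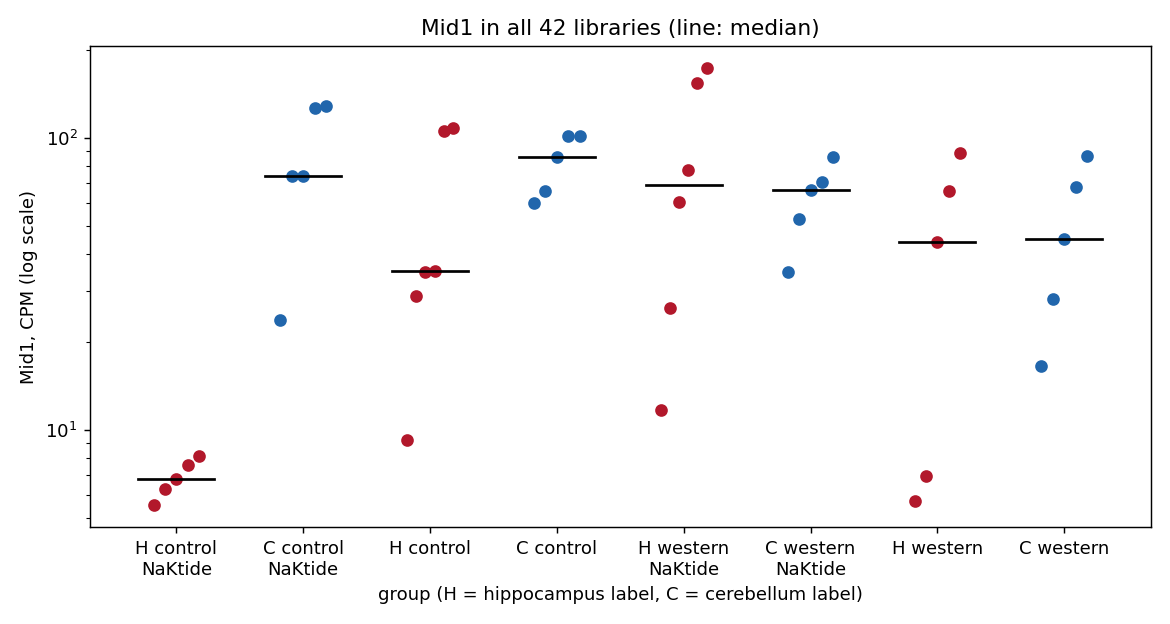
Mid1 in CPM on a log axis in all 42 libraries by group, with 1 point per library and a line at the median. The 5 hippocampus libraries on control diet with NaKtide lie between 5.52 and 8.13 CPM, a range that 2 of the other libraries also fall in or under.

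The remaining genes of smallest p, chosen by rank, were mostly modest in size. Ube4a, a ubiquitin chain assembly factor (chromosome 9, 44923127 to 44965600), was at 24.2, 22.8, 22.2, 22.3 and 23.4 CPM in hippocampus 1 to 5, against 33.0, 30.4, 32.3, 38.4 and 38.3 CPM in cerebellum. Every hippocampus library was below every cerebellum library, with a log2 fold change of -0.58 (SE 0.13, edgeR adjusted p = 0.125). Ubr1, a ubiquitin ligase of the N-degron pathway, was at 9.54 to 17.0 CPM in hippocampus and 23.0 to 37.0 CPM in cerebellum (log2 fold change -0.98, SE 0.24).

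Abcd3, a fatty acid transporter of the peroxisome, averaged 41.7 ± 4.81 CPM in hippocampus and 58.7 ± 4.29 CPM in cerebellum (SD, n = 5 each). Chst10, a sulfotransferase that makes the HNK-1 epitope, averaged 51.1 ± 8.10 CPM in hippocampus and 71.6 ± 3.46 CPM in cerebellum. Pik3r3, a regulatory subunit of phosphoinositide 3-kinase, was at 12.9 to 29.1 CPM in hippocampus and 31.7 to 69.5 CPM in cerebellum. None of these 3 overlapped between the groups, as was so for 2.05% of all genes in this direction. They were chosen by p in this same contrast, so the lack of overlap is no added support. Their log2 fold changes were -0.49 (SE 0.12), -0.48 (SE 0.12) and -1.07 (SE 0.26), each at an edgeR adjusted p of 0.125. Pcdhgb4, a clustered protocadherin of neuronal cell recognition, was at 0.251 to 0.635 CPM in hippocampus and 0.902 to 4.54 CPM in cerebellum (log2 fold change -2.29, SE 0.53). With hippocampus 3 and 4 left out, the log2 fold changes were -0.55 for Ube4a, -0.87 for Ubr1, -0.48 for Abcd3, -0.36 for Chst10, -0.97 for Pik3r3 and -2.38 for Pcdhgb4. Genes of the protocadherin gamma cluster share their last exons, so the split of reads between its members is uncertain.

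Of the 10 genes, 3 were higher in hippocampus. Ifi27, an interferon-inducible gene, was at 38.6, 87.3, 69.8, 106 and 34.5 CPM in hippocampus 1 to 5, against 34.2, 22.1, 32.8, 18.5 and 24.4 CPM in cerebellum. The lowest hippocampus library was just above the highest cerebellum library, and the log2 fold change was 1.35 (SE 0.32, edgeR adjusted p = 0.125). Lrrc51, a leucine-rich repeat gene, was at 2.66 to 6.56 CPM in hippocampus and 1.11 to 2.59 CPM in cerebellum (log2 fold change 1.40, SE 0.31). The log2 fold changes without hippocampus 3 and 4 were 1.02 for Ifi27 and 1.07 for Lrrc51. Gh had a log2 fold change of 5.54 (SE 1.23, edgeR adjusted p = 0.125), which was 0.71 without hippocampus 3 and 4. With cerebellum 1 left out, edgeR called Gh at an adjusted p of 0.0239.

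**Figure D4:**
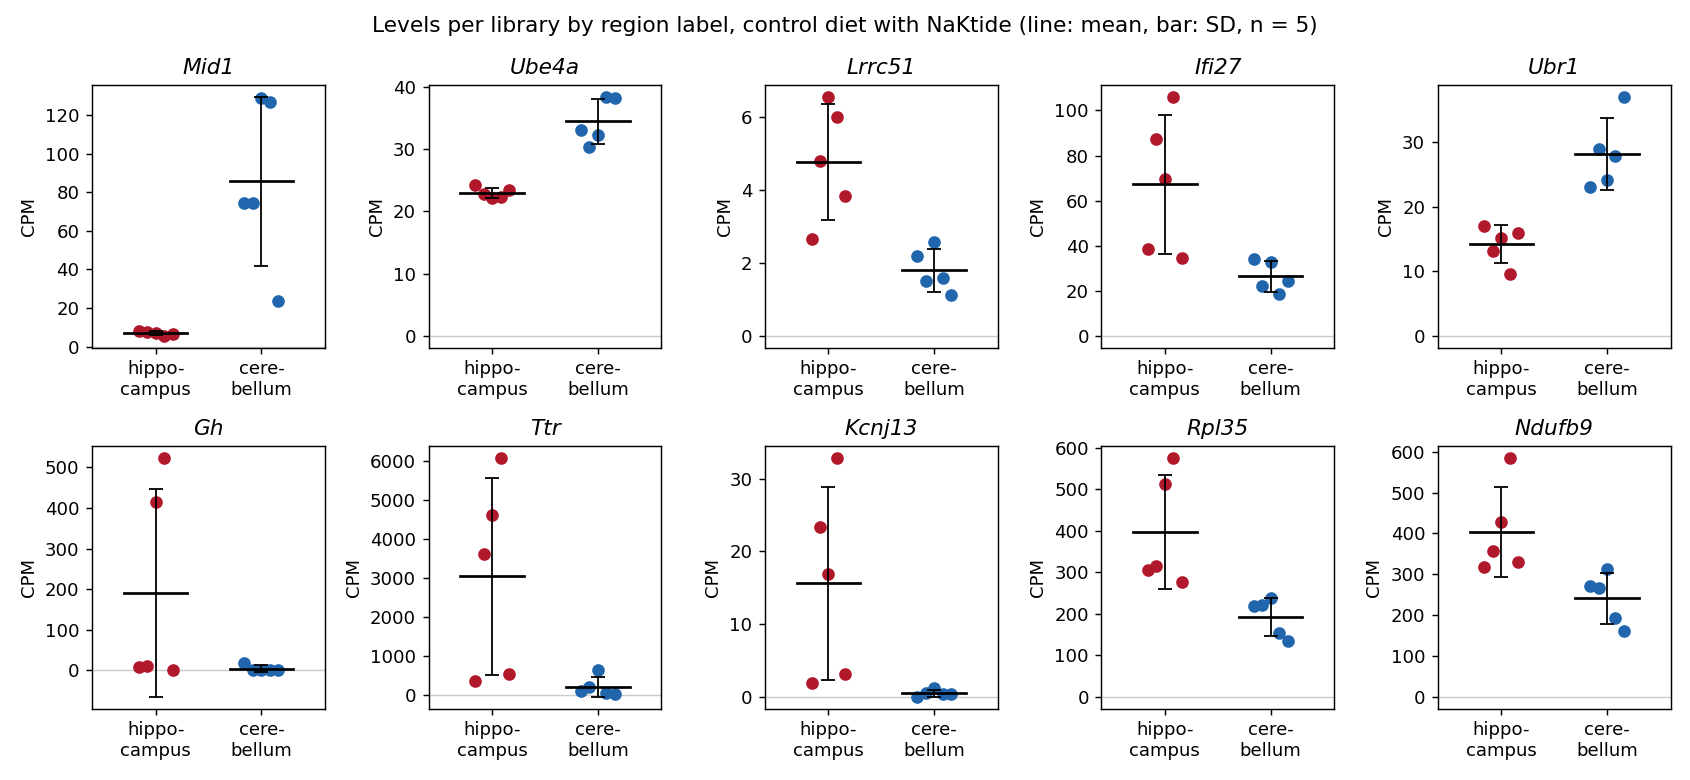
CPM of 10 genes in hippocampus (left in each panel) and cerebellum libraries (right), with 1 point per library, a line at the mean and a bar of 1 SD (n = 5 each). Mid1, Ube4a and Ubr1 are lower in all 5 hippocampus libraries, while the high values of Gh and Ttr come from 2 and 3 of the 5.

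Choroid plexus transcripts were higher in the libraries labelled hippocampus. Ttr, transthyretin, which the choroid plexus secretes in large amounts, was at 340, 3610, 4610, 6080 and 521 CPM in hippocampus 1 to 5, against 92.1, 203, 636, 45.9 and 18.2 CPM in cerebellum 1 to 5. Hippocampus 2, 3 and 4 exceeded every cerebellum library, whereas hippocampus 1 and 5 overlapped with them. Of the 14 genes of the list, 13 had an unadjusted p under 0.05 and a higher level in hippocampus, beside 12.1% of all genes, and 0 were called. Their median log2 fold change was 3.80, and 2.64 when hippocampus 3 and 4 were left out. In that fit 6 of them had an unadjusted p under 0.05 and a higher level, beside 549 of all 17088 genes.

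Kcnj13, a potassium channel of the choroid plexus (chromosome 1, 87386363 to 87394729), was at 1.88, 23.3, 16.9, 32.9 and 3.05 CPM in hippocampus, against 0, 0.451, 1.23, 0.320 and 0.332 CPM in cerebellum. Its groups did not overlap, with a log2 fold change of 4.98 (SE 1.5, edgeR adjusted p = 0.125). Folr1, the folate receptor that carries folate into cerebrospinal fluid, was at 1.25 to 29.3 CPM in hippocampus and 0 to 1.63 CPM in cerebellum (log2 fold change 4.58, SE 1.38). Kl, the gene of the anti-ageing protein klotho, was at 5.78 to 66.8 CPM in hippocampus and 3.55 to 5.76 CPM in cerebellum (log2 fold change 2.78, SE 1.05). When hippocampus 3 and 4 were left out, the log2 fold changes were 4.26 for Kcnj13, 4.29 for Folr1 and 1.97 for Kl. Kcnj13 reached a highest level of 37.4 CPM in hippocampus and 3.34 CPM in cerebellum among the libraries without NaKtide.

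Ependymal genes were high in the libraries that held pituitary transcripts. Of 9 genes, 8 had an unadjusted p under 0.05 and a higher level in hippocampus, beside 12.1% of all genes, 0 were called, and the median log2 fold change was 2.21. Without hippocampus 3 and 4 the median was 0.52, and 0 genes had an unadjusted p under 0.05. Cfap126, a gene of motile cilia, was at 3.28, 9.59, 18.4, 27.4 and 4.01 CPM in hippocampus 1 to 5, against 6.54, 2.40, 1.5, 1.76 and 1.22 CPM in cerebellum. The 9 genes summed to 186 and 239 CPM in hippocampus 3 and 4, against 33.4 to 57.9 CPM in the other hippocampus libraries and 17.1 to 73.0 CPM in cerebellum.

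Of the lists of cerebellar neurons and interneurons, 0 genes were called. Of the cerebellar granule cell genes, 4 of 10 had an unadjusted p under 0.05 and a lower level in hippocampus, beside 9.11% of all genes, and of the Purkinje cell genes 6 of 11. Their median log2 fold changes were -2.12 and -1.25, and their sums reached 1450 and 2490 CPM in cerebellum 5, against at most 131 and 751 CPM in cerebellum 1 to 4. In hippocampus the granule cell genes summed to 47.8 to 151 CPM and the Purkinje cell genes to 369 to 535 CPM. Without cerebellum 5 the log2 fold change of Car8 was 0.11, so its sign rested on this library. That of Cbln3 was -7.48 with cerebellum 5 and -0.47 without it. With cerebellum 5 kept and hippocampus 3 and 4 left out, the granule and Purkinje cell medians were -3.67 and -1.35. Then 6 genes of each list had an unadjusted p under 0.05 and a lower level, beside 637 of all 17088 genes. Among the markers of inhibitory interneurons, 5 of 13 had an unadjusted p under 0.05 and a lower level in hippocampus, beside 9.11% of all genes. The median log2 fold change of these 13 genes was -0.06. They summed to 1610 to 1900 CPM in hippocampus and to 1290 to 1880 CPM in cerebellum. Without hippocampus 3 and 4 the median was -0.48, and 2 genes had an unadjusted p under 0.05 and a lower level, beside 637 of all 17088 genes. Gad2, an enzyme that makes GABA, was at 44.0 to 70.8 CPM in hippocampus and 79.9 to 196 CPM in cerebellum. Its groups did not overlap (log2 fold change -1.12, SE 0.41, edgeR adjusted p = 0.139). Gad1, the other GABA-making enzyme, was at 150 to 235 CPM in hippocampus and 247 to 396 CPM in cerebellum.

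Genes of the sodium pump, the source of NaKtide, and of Src signalling were not called. Atp1b1, a beta subunit of the pump, was at 892, 858, 459, 413 and 793 CPM in hippocampus 1 to 5, against 735, 899, 784, 1040 and 931 CPM in cerebellum 1 to 5. Hippocampus 3 and 4 were the lowest, and the groups overlapped (log2 fold change -0.36, SE 0.24, edgeR adjusted p = 0.37). Fxyd1, a small regulator of the pump, was at 47.8 to 197 CPM in hippocampus and 28.3 to 65.4 CPM in cerebellum (log2 fold change 1.31, SE 0.46, edgeR adjusted p = 0.133). Of the 22 genes of the pump and Src list, 1 had an unadjusted p under 0.05 and a higher level and 1 a lower level. The shares of all genes were 12.1% and 9.11%, and the median of the list was -0.13. These counts were 0 and 2 without hippocampus 3 and 4, beside 549 and 637 of all 17088 genes, and the median was -0.02.

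Ribosomal protein genes were shifted together. Of 79 genes of the cytosolic ribosome, 76 had an unadjusted p under 0.05 and a higher level in hippocampus, beside 12.1% of all genes, and 34 did not overlap between the groups, beside 2.71%. Their median log2 fold change was 0.72, and 0 were called. Rpl35, a protein of the large subunit, was at 306, 315, 512, 576 and 277 CPM in hippocampus 1 to 5, against 219, 220, 237, 153 and 133 CPM in cerebellum 1 to 5. Hippocampus 3 and 4 were the highest and cerebellum 4 and 5 the lowest, the same 4 libraries that lay at the ends of the first component. The log2 fold change of Rpl35 was 1.05 (SE 0.30, edgeR adjusted p = 0.125). Without hippocampus 3 and 4 the median of the list was 0.44. Then 7 of its genes had an unadjusted p under 0.05 and a higher level, beside 549 of all 17088 genes.

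Many nuclear genes of mitochondrial respiration were shifted the same way. Of 73 nuclear genes of the respiratory chain, 42 had an unadjusted p under 0.05 and a higher level in hippocampus, beside 12.1% of all genes, and 1 a lower level. None of them was called, and the median log2 fold change was 0.47. Without hippocampus 3 and 4 the median was 0.31, and 2 genes had an unadjusted p under 0.05 and a higher level, beside 549 of all 17088 genes. Ndufb9, a subunit of complex I, was at 319, 356, 428, 586 and 331 CPM in hippocampus 1 to 5, against 272, 267, 312, 193 and 160 CPM in cerebellum, with no overlap (log2 fold change 0.75, SE 0.24, edgeR adjusted p = 0.125). The 13 protein genes of the mitochondrial genome took 7.27%, 5.17%, 10.4%, 10.2% and 9.24% of counts in hippocampus 1 to 5, against 5.04%, 8.84%, 7.0%, 5.83% and 5.12% in cerebellum 1 to 5. The mean share was 8.47 ± 2.23% in hippocampus and 6.37 ± 1.59% in cerebellum (SD, n = 5 each), a difference of 2.1 percentage points (exact permutation test, two-sided, p = 0.111). With 1 library left out the difference was 1.61 to 2.93 points (exact p = 0.0317 to 0.222), and it was under 0.05 only without hippocampus 2, the library of lowest share in its group. Without hippocampus 3 and 4 it was 0.86 points (exact p = 0.5).

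The fold changes also ran with transcript length. Over 17065 genes (a description, since genes are no replicates) the correlation of the log2 fold change with log2 exon length was -0.34, and the median was 0.32 in the shortest quartile of genes and -0.22 in the longest. Without hippocampus 3 and 4 the correlation was -0.26 and these medians were 0.23 and -0.19. In the contrast without NaKtide the correlation was 0.28 and these medians were -0.30 and 0.20. Ribosomal protein and respiratory chain transcripts are short as a class, and the part of length in their shift was not tested.

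The contrast of labels differed between mice with and without NaKtide on control diet. The interaction of label and NaKtide was called by edgeR for 3524 of 17088 genes, of which 2006 (11.7%) were higher and 1518 (8.88%) lower with NaKtide. Without hippocampus control NaKtide 3 and 4 together, 0 genes were called and 4266 had an unadjusted p under 0.05. Among the libraries without NaKtide, cerebellum control 1 held 197 CPM of Gh, cerebellum control 2 held 310 CPM of Tph2, an enzyme of serotonin neurons, and cerebellum control 4 held 376 CPM of Hcrt, a hypothalamic neuropeptide. Leaving out these 3 gave 0 calls and 3180 genes at an unadjusted p under 0.05. With all libraries kept, 6340 genes had an unadjusted p under 0.05. Both fits with libraries left out had a smaller group, so the part of these libraries and lost power cannot be told apart. Single libraries moved the count to 2225 (hippocampus NaKtide 4), 2290 and 2020 (cerebellum NaKtide 4 and 5), 2065 (cerebellum control 2) and 5718 (cerebellum control 5). No pair of the 42 libraries was closer than hippocampus control 5 and 6 (mean chi-square 2.38), and the count was 2439 without the first and 2418 without the second.

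Pituitary genes had the smallest p of this interaction. Gh averaged 192 ± 256 CPM in hippocampus and 4.21 ± 8.53 CPM in cerebellum with NaKtide (SD, n = 5 each), against 0.588 ± 0.724 CPM in hippocampus (n = 6) and 66.2 ± 77.2 CPM in cerebellum (n = 5) without it. Its interaction was 12.29 on the log2 scale (SE 1.82, edgeR adjusted p = 0.000717). Prl had an interaction of 10.76 (SE 1.83, edgeR adjusted p = 0.00361), and Pomc, the precursor of corticotropin, 5.85 (SE 0.88, edgeR adjusted p = 0.000717). With NaKtide, Gh was at 414 and 524 CPM in hippocampus 3 and 4 and at 0.803 to 11.9 CPM in the other 3 hippocampus libraries. Without NaKtide the 5 cerebellum libraries ranged from 2.93 to 197 CPM.

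Ribosomal and respiratory genes were called together in the interaction. Of the 79 ribosomal protein genes, 78 were called higher, beside 11.7% of all genes, and the median interaction was 1.39. The median contrast of labels was 0.72 with NaKtide and -0.63 without. Rpl24 averaged 106 ± 43.1 CPM in hippocampus and 54.9 ± 16.3 CPM in cerebellum with NaKtide, against 58.2 ± 24.0 and 118 ± 31.1 CPM without it, in the same order of labels (interaction 1.96, SE 0.41, edgeR adjusted p = 0.00696). Of the 73 respiratory chain genes 56 were called higher (median 1.04), and of the 13 mitochondrially encoded genes 8 (median 1.09). Examples were Ndufa5 at 1.66 (SE 0.36), Ndufb9 at 1.5 (SE 0.32), the assembly factor Ndufaf8 at 1.92 (SE 0.35), mt-Nd3 at 1.74 (SE 0.42) and mt-Cytb at 1.08 (SE 0.29). Without hippocampus NaKtide 3 and 4 the medians of the 3 lists were 1.07, 0.91 and 0.80, and 0 of their genes were called.

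After the pituitary genes, Dstn and Mob4 had the smallest p among genes named by the rule. Dstn, an actin-depolymerizing protein, averaged 259 ± 40.6 CPM in hippocampus and 190 ± 18.1 CPM in cerebellum with NaKtide, against 184 ± 17.4 and 263 ± 23.5 CPM without it, labels in the same order (interaction 0.96, SE 0.17, edgeR adjusted p = 0.0045). Mob4, a subunit of a phosphatase complex, had an interaction of 1.04 (SE 0.19, edgeR adjusted p = 0.00531). Among antioxidant genes 7 of 20 were called higher and 1 lower, beside 11.7% and 8.88% of all genes. Gpx4, which removes lipid peroxides, had an interaction of 1.53 (SE 0.37), and Sod1, the cytosolic superoxide dismutase, 1.06 (SE 0.29).

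Several of the lists held genes called lower. Of 15 glutamate receptor subunits tested 4 were called lower, beside 8.88% of all genes, among them Grik3, a kainate receptor, at -1.94 (SE 0.57). Of 15 GABA-A receptor subunits 1 was called lower, which was Gabrb2 at -3.36 (SE 0.85). That count was not above the 8.88% of all genes. Of 20 genes of insulin and leptin signalling 3 were called lower, beside 8.88%, among them the receptors Insr at -1.07 (SE 0.28) and Igf1r at -1.21 (SE 0.31). Of 15 clock genes 6 were called lower, beside 8.88%. Among them were Arntl, the core activator of the clock, at -1.31 (SE 0.39) and the output factor Tef at -0.85 (SE 0.24). Of 15 Alzheimer disease-related genes 3 were called lower and 1 higher, beside 8.88% and 11.7% of all genes, with a median interaction of -0.04. Among those called lower was Adam10, the alpha-secretase that cuts the amyloid precursor protein, at -1.44 (SE 0.43).

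Of 14 immediate-early genes, which neurons switch on within minutes of activity, 3 were called lower in the interaction, beside 8.88% of all genes. Fosb averaged 8.05 ± 3.50 CPM in hippocampus and 11.9 ± 5.45 CPM in cerebellum with NaKtide, against 14.7 ± 5.11 and 3.84 ± 4.03 CPM without it, labels in the same order. The interaction was -2.44 for Fosb (SE 0.76, edgeR adjusted p = 0.0225) and -2.28 for Btg2, an early response gene of growth arrest (SE 0.68, edgeR adjusted p = 0.0176). The median contrast of labels over this list was 0.10 with NaKtide and 2.00 without.

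Of the 22 pump and Src genes 2 were called higher and 1 lower in the interaction, beside 11.7% and 8.88% of all genes. Neither count was above that share. Fxyd1 averaged 117 ± 58.5 CPM in hippocampus and 47.0 ± 13.2 CPM in cerebellum with NaKtide, against 70.4 ± 55.4 and 93.6 ± 39.6 CPM without it, labels in the same order. It had an interaction of 1.72 (SE 0.62, edgeR adjusted p = 0.0452). This call was lost in 21 of 29 alternatives, over which the edgeR or DESeq2 adjusted p ranged from 0.00773 to 0.268.

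**Figure D5:**
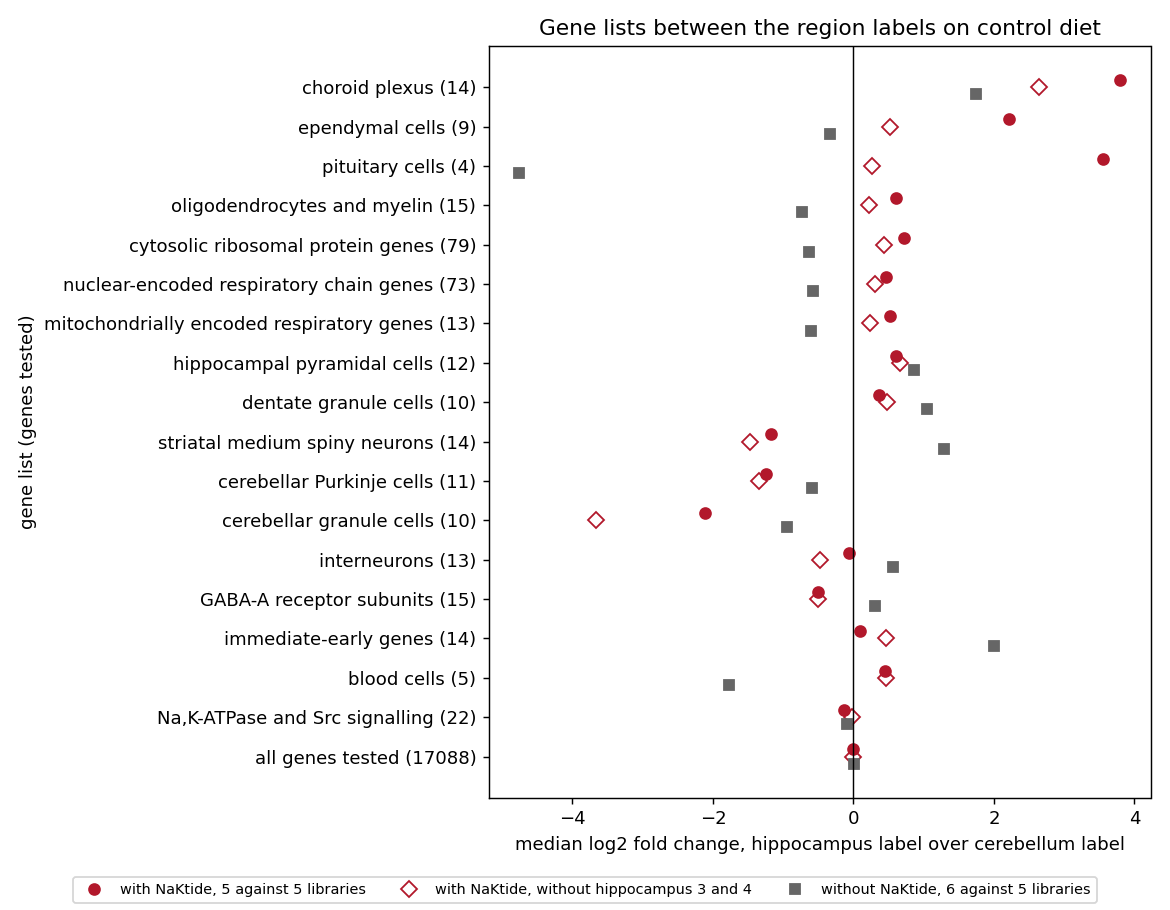
Median log2 fold change of hippocampus over cerebellum for 17 gene lists and all genes tested, on control diet with NaKtide (circles), with NaKtide but without hippocampus 3 and 4 (diamonds) and without NaKtide (squares). Ribosomal protein genes lie at 0.72 and 0.44 with NaKtide and at -0.63 without, while the median of all genes stays at 0.

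Between the diets the contrast of labels with NaKtide was not called to differ. The edgeR interaction of label and diet gave 0 calls (0.0%) and 1154 genes of unadjusted p under 0.05, and DESeq2 called 5. Without hippocampus control NaKtide 3 and 4 it gave 0 calls and 1106 genes of unadjusted p under 0.05. In the western diet arm, cerebellum western NaKtide 5 formed the next closest pairs of the series, with hippocampus control 6 (mean chi-square 3.51) and 5 (5.60), across labels and diets.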

How the data were processed

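Libraries of mouse brain RNA were made with a kit that keeps strand, per the labels' protocols. GRCm38, HISAT2 2.1.0, Trimmomatic 0.38 and DESeq2 1.20.0 are listed in the submitters' processing notes; read counter and annotation used: not given in the sources used here. Groups rest on the library labels, since the series' design text describes liver and adipose tissue. The authors' deposited table of raw counts (54232 genes, 42 libraries, 0 columns without a sample) was used. Symbols and coordinates were taken from GENCODE M21 for 54079 IDs.

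All libraries were fitted in 8 groups by edgeR 4.0.16 (R 4.3.3; TMM, filterByExpr, quasi-likelihood F test); a call needed an adjusted p (Benjamini-Hochberg) below 0.05. The SE is |log2 fold change| divided by the root of F. CPM uses TMM-scaled library sizes. DESeq2 1.42.0 was an alternative, and the fit was tested on simulated data. Shares were compared by exact permutation over 252 assignments.

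Named genes were those always listed for regions and the pump, the 10 smallest p where fewer than 10 genes were called, and otherwise the 6 largest rises, 6 largest falls, 6 smallest p and 2 smallest p of each list, with a symbol and a mean of at least 1 CPM; the text gives some of them. Other genes named are list members chosen after their values were seen. Some genes of the rule are not reported here. The comparison, lists and rule were chosen with earlier results of these data known.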

Additional observations from a re-analysis of the deposited data

Results flagged for a closer look

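In 17 of 82 checks of a gene or quantity within a group of 5, 1 library stood apart by its gap to the others. Chance gives about 1 in 20 for independent checks. These genes were chosen with earlier results known and many share a library, so the count is a description and no test. Cerebellum 5 stood apart for Gabra6 at 121 CPM, Cbln3 at 442 CPM, Pcp2 at 129 CPM, Car8 at 347 CPM, Cbln1, a synaptic organizer of granule cells, at 314 CPM, Pik3r3 at 69.5 CPM and Pcdhgb4 at 4.54 CPM. Cerebellum 1 stood apart for C1ql2 at 111 CPM, Slc6a3 at 84.2 CPM, Th at 79.2 CPM, Tcf7l2 at 54.2 CPM, Gh at 19.5 CPM, Cfap126 at 6.54 CPM, Prl at 4.05 CPM and Pomc at 3.42 CPM. Cerebellum 2 stood apart for Rgs9 at 331 CPM and Drd2 at 173 CPM.

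The contrast of labels differed with and without NaKtide on control diet for 3524 genes by edgeR, and for 0 without hippocampus NaKtide 3 and 4. The latter fit had fewer libraries and so less power. On the log2 scale the interaction was 12.29 for Gh, 10.76 for Prl, 5.85 for Pomc, 1.96 for Rpl24, 1.93 for Rpl35, 1.92 for Ndufaf8, 1.74 for mt-Nd3, 1.72 for Fxyd1, 1.66 for Ndufa5, 1.53 for Gpx4, 1.5 for Ndufb9, 1.08 for mt-Cytb, 1.06 for Sod1, 1.04 for Mob4 and 0.96 for Dstn. It was -3.36 for Gabrb2, -3.01 for Mid1, -2.44 for Fosb, -2.28 for Btg2, -1.94 for Grik3, -1.44 for Adam10, -1.31 for Arntl, -1.21 for Igf1r, -1.07 for Insr and -0.85 for Tef.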

How the results depend on the processing

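For the labels on control diet with NaKtide, against 0 genes called, DESeq2 called 19, the compared groups alone 2, the replicate block 2, and fits leaving out 1 library 0 to 1. Replicate numbers share no source in the labels, same-numbered libraries had a median correlation of -0.22, and 0 of 5 hippocampus libraries correlated best with their own number. For the interaction with NaKtide, against 3524 genes called, DESeq2 gave 3939, the replicate block 2570, no filter 2445, and leaving out 1 library 2020 to 5718 (libraries without NaKtide were added after seeing the data). It gave 0 without hippocampus NaKtide 3 and 4, and, added after seeing the data, 0 without cerebellum control 1, 2 and 4 and 1 without hippocampus NaKtide 3 and 4 and cerebellum NaKtide 1 and 5. Fits that leave out several libraries have less power, so their lost calls cannot be put down to those libraries alone. For the interaction with diet, against 0 genes called, DESeq2 called 5 and leaving out 1 library gave 0 to 7. The difference in mitochondrial share was 1.61 to 2.93 points with 1 library left out and, added after seeing the data, 0.86 without hippocampus NaKtide 3 and 4. Without hippocampus NaKtide 3 and 4 the log2 fold change of Prl (-0.20) reversed. With 1 library left out, those of Car8 (-4.0 to 0.11) and Rgs9 (-1.42 to 0.52) changed sign. The causes were not tested. Depth of 4669374 to 8220112 counts limits genes under 1 CPM to a few counts.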
